A study of Saccharomyces cerevisiae with 12 samples.

Results

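The genes described here are 4 α cell specific genes of budding yeast: MF(ALPHA)1 (YPL187W) and MF(ALPHA)2 (YGL089C), which encode precursors of the pheromone α-factor, STE3 (YKL178C), the receptor for a-factor, and SAG1 (YJR004C), the cell wall protein α-agglutinin. They were chosen by name, with earlier results of these arrays known, and each had 1 probe among the 6958 gene probes of the array. By their systematic names they lie on 4 different chromosomes: XVI for MF(ALPHA)1, VII for MF(ALPHA)2, XI for STE3 and X for SAG1. A haploid yeast cell is of type a or α. In α cells the activator α1 works with the general factor Mcm1 to switch on this set, while the repressor α2 holds down the a cell specific genes. α cells secrete α-factor, sense the a-factor of a partner through Ste3, and adhere to it through Sag1, which binds the a-agglutinin on the partner's surface. Pheromone signalling through the factor Ste12 raises the level of many of these genes further.

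Total RNA was hybridised to 12 arrays with 1 colour (Cy5), 3 in each of 4 groups, and a sample below is 1 array. The WT strain YCL1071 and the sgs1Δ strain YCL1098 are both labelled MATα, with the alleles his3Δ1, leu2Δ0, met15Δ0, ura3Δ0 and trp1Δ::HPH, and both carry the plasmid pRS414-GAL1-HO-TRP1. That plasmid places HO, the endonuclease that starts mating-type switching, behind the galactose promoter GAL1. YCL1098 in addition has sgs1Δ::kanMX4 and so lacks the RecQ helicase Sgs1. Each strain was kept in medium without tryptophan for 4 h at 30 °C, either with 30 µM tangeretin, a methoxylated flavone of citrus peel, or without it, and DMSO, the solvent, was at 0.2% in all 4 groups. The sugar of the medium is not stated in the labels. Each genotype is represented by 1 named strain. The column headers give the 3 arrays of a group 1 shared sample number, as repeat hybridisations of 1 RNA would have, and no label names separate cultures, so the errors and p-values may measure technical spread only.

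SGS1 was detected on all 6 WT arrays and on none of the 6 sgs1Δ arrays, as its genotype states. The arrays differed in brightness: the median raw intensity was 530 to 814.5 in WT control, 780 to 956 in WT with tangeretin, 928 to 1344 in sgs1Δ control and 1367.5 to 1530 in sgs1Δ with tangeretin. Raw intensities below therefore carry this difference, and normalized log2 values are quantile normalized between arrays. Brightness did not overlap between the strains in either medium, nor between the sgs1Δ groups. A fit with brightness as a covariate, used below as an alternative, thus cannot fully separate brightness from these comparisons. Spots printed empty had a 99th percentile of at most 7 raw units. The 4 α cell genes were detected on all 12 arrays. The 7 genes that mark a cells were also detected on all 12, so detection does not tell the cell types apart here. Levels of different probes are not comparable, so each gene is compared with itself across groups.

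The α-factor genes differed most between the strains. MF(ALPHA)1, the major source of α-factor, had raw intensities of 1036, 1106 and 1221 on the WT control arrays and 1261, 1326 and 1365 on the WT tangeretin arrays. It read 19151, 23392 and 20124 in sgs1Δ control and 34726, 33961 and 34498 in sgs1Δ with tangeretin. All 6 sgs1Δ arrays thus lay far above all 6 WT arrays, and the tangeretin arrays of sgs1Δ above its control arrays. In normalized log2 units the mean and SD of the 3 arrays were 10.74 ± 0.18 for WT in control medium and 10.57 ± 0.13 for WT under tangeretin. In sgs1Δ they were 14.33 ± 0.10 without tangeretin and 14.73 ± 0.07 with it.

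MF(ALPHA)2, the minor α-factor gene, read 172, 195 and 239 in WT control and 205, 263 and 242 in WT with tangeretin. In sgs1Δ it read 2165, 2991 and 1988 in control medium and 5597, 5846 and 5465 with tangeretin. The order of the groups was that of MF(ALPHA)1, with no overlap among the sgs1Δ groups and WT. Its normalized mean was 8.63 ± 0.17 in WT control and 8.30 ± 0.07 with tangeretin there, and in sgs1Δ it was 11.10 ± 0.05 in control medium and 11.97 ± 0.05 with tangeretin. Both genes encode the same kind of repeat peptide, and the probe sequences were not used here, so cross-hybridisation between them was not tested.

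STE3, the receptor gene, read 146, 141 and 196 in WT control, 192, 208 and 197 in WT with tangeretin, 1143, 1355 and 898 in sgs1Δ control and 2122, 1871 and 2251 in sgs1Δ with tangeretin. Its normalized means were 8.34 ± 0.12, 8.10 ± 0.11, 10.03 ± 0.14 and 10.48 ± 0.21 in the same order of groups. The second tangeretin array of sgs1Δ, at 10.24, came close to the highest control array, at 10.19. SAG1, the adhesion gene, read 1214, 1255 and 1570 in WT control, 1445, 1655 and 1642 in WT with tangeretin, 4265, 5452 and 3334 in sgs1Δ control and 9811, 10256 and 9647 in sgs1Δ with tangeretin. Its normalized means were 10.97 ± 0.09, 10.82 ± 0.10, 11.99 ± 0.14 and 12.82 ± 0.05 in that order. For each of the 4 genes the sgs1Δ tangeretin group was highest and the sgs1Δ control group second, with no overlap between them or with WT.

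**Figure D1:**
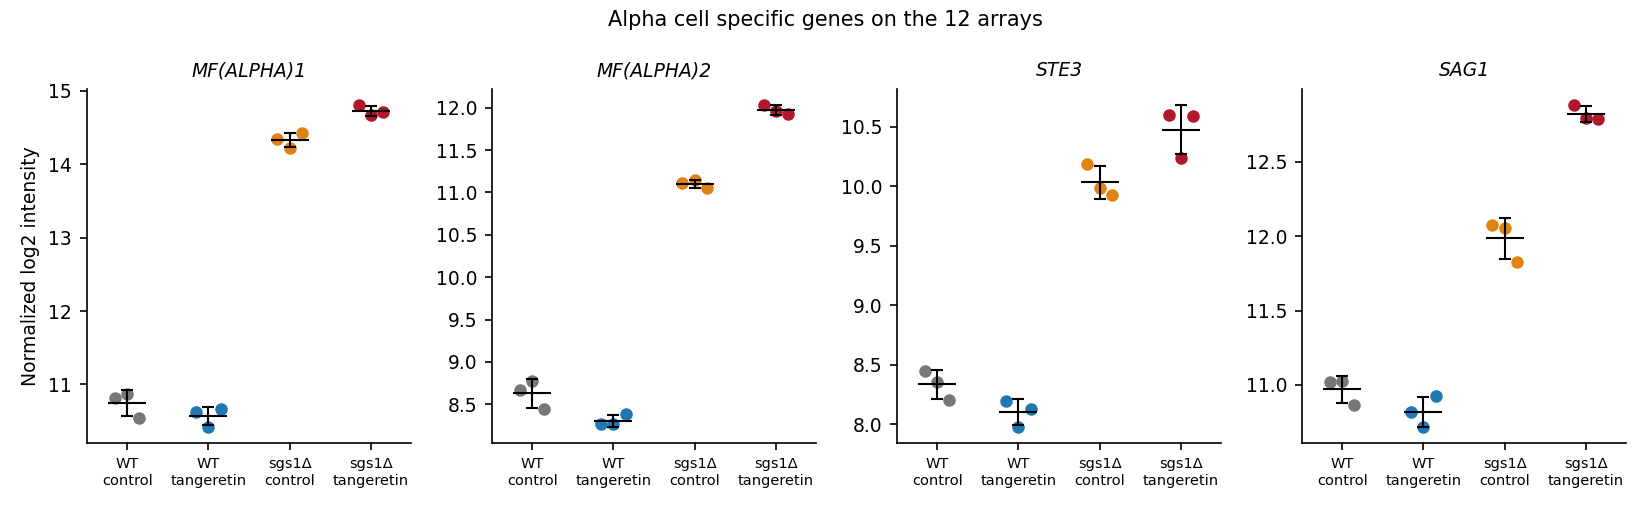
Normalized log2 intensity (vertical axis, a separate range in each panel) of the 4 α cell specific genes in the 4 groups. Points are single arrays, the long bar is the group mean and the error bar the SD of 3 arrays. In each panel both sgs1Δ groups lie above both WT groups, and the tangeretin arrays of sgs1Δ lie above its control arrays.

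The strains were compared in control medium to ask how they differed before treatment. All 4 genes were higher in sgs1Δ, by 3.59 (SE 0.10) on the log2 scale for MF(ALPHA)1, which is 12.01-fold, by 2.47 (SE 0.09, 5.54-fold) for MF(ALPHA)2, by 1.70 (SE 0.12, 3.25-fold) for STE3 and by 1.01 (SE 0.09, 2.02-fold) for SAG1. These differences were among the results known when the genes were chosen, so they are a description and no p-value is given. By the limma fit at an adjusted p under 0.05 all 4 were called higher, beside 21.3% of the 6319 genes tested (26.8% were called lower), and their median difference was 2.08 beside -0.03 over all genes. Their arrays did not overlap between the strains, beside 22.1% of all genes with no overlap in this direction. MF(ALPHA)1 ranked 5th from the top of all genes, MF(ALPHA)2 11th, STE3 31st and SAG1 199th. In total RNA, more cells expressing these genes and more RNA per cell cannot be told apart.

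The strain difference was unequal among the 4 genes. That of MF(ALPHA)1 exceeded that of MF(ALPHA)2 by 1.12 (SE 0.09) in log2 units, that of STE3 by 1.89 (SE 0.12) and that of SAG1 by 2.57 (SE 0.14). That of STE3 exceeded that of SAG1 by 0.68 (SE 0.07, n = 3 per group). The offset of 50 added before the log reduces the fold of dim genes, and MF(ALPHA)2 and STE3 were dim in WT. Without it their differences were 2.65 and 1.89, and the order of the 4 was as before. The ratio of raw group means, which no normalization touches, was 18.6 for MF(ALPHA)1, 11.8 for MF(ALPHA)2, 7.03 for STE3 and 3.23 for SAG1, beside 1.71 for the array medians.

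Under tangeretin the strain difference was larger for each gene. MF(ALPHA)1 was 4.16 (SE 0.10, 17.9-fold) higher in sgs1Δ than in WT, MF(ALPHA)2 3.67 (SE 0.09, 12.7-fold), STE3 2.37 (SE 0.12, 5.18-fold) and SAG1 2.00 (SE 0.09, 4.00-fold). It is likewise a description with no p-value, and it shares its arrays with the responses to tangeretin below. All 4 were called higher, beside 20.6% of all genes (25.2% were called lower, 45.7% either way), and all 4 had arrays without overlap, beside 26.1%. MF(ALPHA)1 ranked 2nd of all genes, MF(ALPHA)2 5th, STE3 14th and SAG1 20th.

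**Figure D2:**
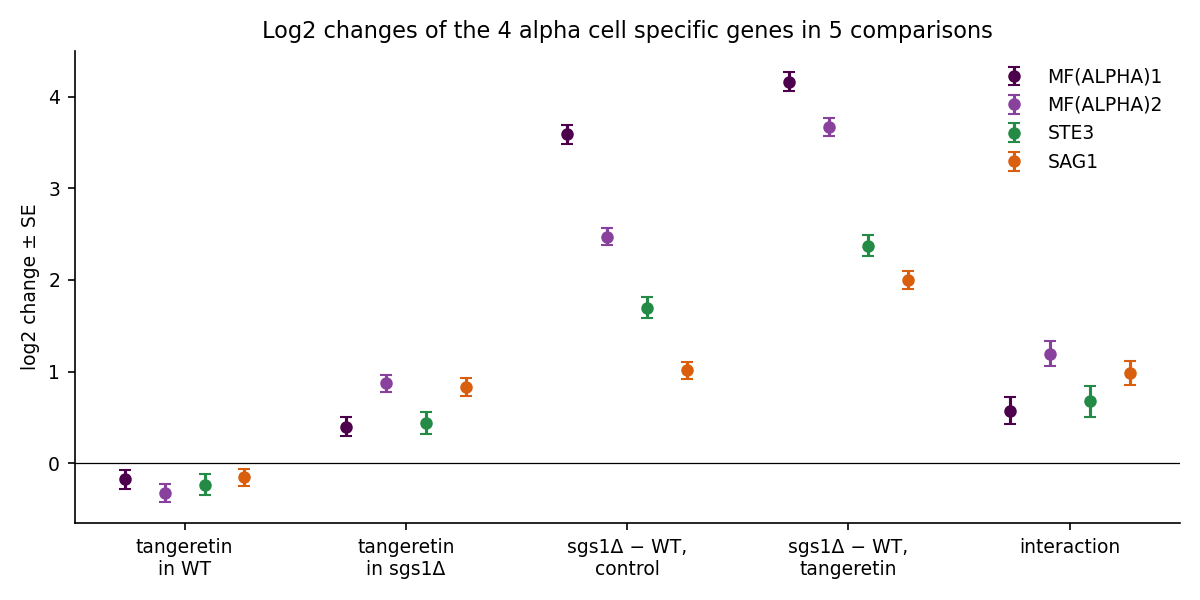
Log2 change (vertical axis) of each gene in the 5 comparisons (horizontal axis), with the SE of the fit over all 12 arrays. The strain differences run from 1.01 to 4.16, the responses in sgs1Δ from 0.40 to 0.87, and the values in WT lie between -0.32 and -0.15.

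Tangeretin was compared with control medium within sgs1Δ to ask how these genes responded where Sgs1 is missing. MF(ALPHA)2 was higher by 0.87 (SE 0.09, 1.83-fold) and SAG1 by 0.83 (SE 0.09, 1.78-fold). STE3 had a change of 0.44 (SE 0.12, 1.36-fold) and MF(ALPHA)1 of 0.40 (SE 0.10, 1.32-fold). These values drew attention to the genes and are a description. The fit called 2 of the 4 higher, MF(ALPHA)2 and SAG1, beside 0.744% of all genes called higher and 0.712% lower (1.46% either way), and nothing is read from that count. For all 4 genes the arrays of the groups did not overlap, beside 9.18% of all genes in this direction. The response of MF(ALPHA)1 minus that of MF(ALPHA)2 was -0.47 (SE 0.09). The response of MF(ALPHA)2 exceeded that of STE3 by 0.43 (SE 0.14), and differed from that of SAG1 by 0.04 (SE 0.06, n = 3 per group). Of the 4 genes, MF(ALPHA)1 thus had the largest strain difference and the smallest value here, and its value lay within the error of that of STE3 (difference -0.04, SE 0.14). Without the second sgs1Δ tangeretin array STE3 was called too, at 0.56, and without the third WT control array MF(ALPHA)1 was called at 0.39. With array weights all 4 were called, with brightness as a covariate MF(ALPHA)1 was called at 0.61, and with 75th percentile scaling STE3 was called at 0.48.

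The same comparison in WT, where Sgs1 is present, found none of the 4 genes called by limma at an adjusted p under 0.05, beside 3.29% of all genes, 1.84% higher and 1.46% lower. MF(ALPHA)2 had a change of -0.32 (SE 0.09, 95% interval -0.53 to -0.12, adjusted p = 0.0694 by limma) and STE3 of -0.23 (SE 0.12, interval -0.48 to 0.02, adjusted p = 0.205 by limma). MF(ALPHA)1 had a change of -0.17 (SE 0.10, interval -0.40 to 0.05, adjusted p = 0.281 by limma) and SAG1 of -0.15 (SE 0.09, interval -0.35 to 0.05, adjusted p = 0.297 by limma). These intervals are not adjusted for the number of genes. The WT arrays also enter the interaction, which was known when the genes were chosen. The p-values and intervals for WT are thus not independent of that choice. The tangeretin arrays lay below all control arrays for MF(ALPHA)2 and STE3, beside 12.7% of all genes in this direction, and overlapped them for MF(ALPHA)1 and SAG1. The third WT control array had the lowest control value of each gene, 10.54 for MF(ALPHA)1, 8.44 for MF(ALPHA)2, 8.21 for STE3 and 10.87 for SAG1. Without it MF(ALPHA)2 was called, at -0.42 (adjusted p = 0.00776 by limma). The raw group means were 1.17 to 1.24 times higher with tangeretin, beside 1.36 for the array medians, so the sign of these changes rests on the normalization between arrays. With array brightness as a covariate MF(ALPHA)1 changed sign, at 0.04, MF(ALPHA)2 was at -0.23 and STE3 at -0.08. With 75th percentile scaling MF(ALPHA)2 was at -0.11 and STE3 at -0.04. With array weights all 4 were called lower, MF(ALPHA)1 at -0.30, MF(ALPHA)2 at -0.42, STE3 at -0.31 and SAG1 at -0.23.

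The interaction, the response of sgs1Δ minus that of WT, was 1.20 (SE 0.13) for MF(ALPHA)2, 0.98 (SE 0.13) for SAG1, 0.68 (SE 0.17) for STE3 and 0.57 (SE 0.15) for MF(ALPHA)1. It too was known when the genes were chosen. MF(ALPHA)2 and SAG1 were called higher, beside 0.586% of all genes called higher, 0.649% lower and 1.23% either way. The median over the 4 genes was 0.83 beside 0.01 over all genes. Without the third WT control array all 4 were called, with MF(ALPHA)1 at 0.67 and STE3 at 0.74, and without the second sgs1Δ tangeretin array STE3 was called at 0.80.

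**Figure D3:**
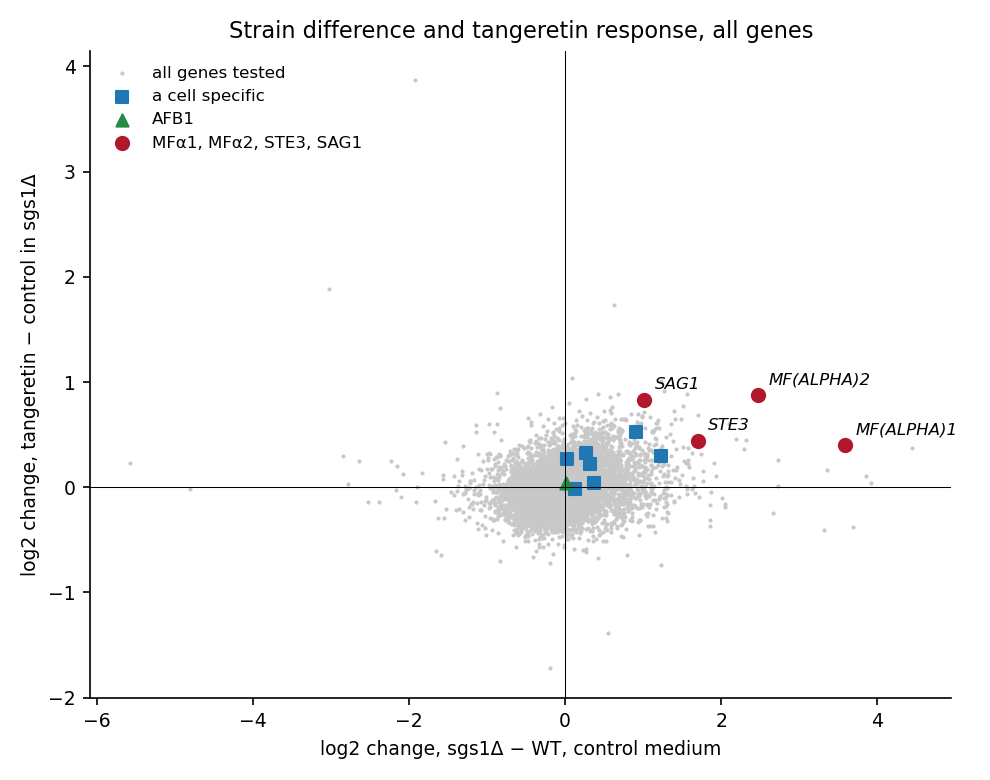
Log2 strain difference in control medium (horizontal axis) against the log2 tangeretin response in sgs1Δ (vertical axis) for 6319 genes (grey), the 4 α cell genes (red), AFB1 (green) and 7 a cell specific genes (blue). Both axes use the sgs1Δ control arrays, so no relation is read from the shape of the cloud. The red points lie right of and above the origin, at 1.01 to 3.59 and 0.40 to 0.87, and AFB1 lies at 0.01 and 0.04.

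AFB1 (YLR040C), a further α cell specific gene whose product acts as a barrier to a-factor, was not called in any comparison. It read 6077, 6441 and 7855 in WT control, 7008, 7981 and 8781 in WT with tangeretin, 10246, 10886 and 7854 in sgs1Δ control and 13527, 12901 and 12567 in sgs1Δ with tangeretin. After normalization its 4 groups overlapped. Its strain difference was 0.01 (SE 0.11, adjusted p = 0.934 by limma) in control medium and 0.17 (SE 0.11, adjusted p = 0.217 by limma) under tangeretin, and its response was 0.04 in sgs1Δ and -0.11 in WT. Over all alternatives run, its strain difference in control medium lay between -0.11 and 0.19. AFB1 and the gene lists below were also chosen with earlier results of these data known. Their p-values are therefore a description and not fresh tests.

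The regulators of cell type gave mixed values, and their probes did not all agree. The probes for α1, the activator of this set, match both the active locus MATALPHA1 and the silent copy HMLALPHA1. The brightest of 3 of HMLALPHA1/MATALPHA1 was lower in sgs1Δ, at -1.23 (SE 0.11, adjusted p = 2.29e-06 by limma) in control medium and -0.99 under tangeretin. The others also read lower in control medium, at -0.40 and -0.50. In WT with tangeretin the probes disagreed, at -0.25 for the brightest and 0.51 and 0.39 for the others, with none called. The brightest of the probes shared by the α2 genes and HMRA2 was lower in sgs1Δ at -0.58 (SE 0.10, adjusted p = 0.000317 by limma) in control medium. With array brightness in the fit this brightest probe was at -0.36 and not called. The other probes stood at -0.19, -0.25 and -0.28 without that covariate, of which that at -0.28 alone was called. MCM1, the partner of α1, stood at 0.08 (SE 0.15, adjusted p = 0.665) in control medium and was lower under tangeretin at -0.54 (SE 0.15, adjusted p = 0.00874 by limma), a call lost with 75th percentile scaling (-0.40). Of the corepressor genes, CYC8 was higher in sgs1Δ control (0.96, SE 0.12) and TUP1 was not called there (-0.11). Under tangeretin TUP1 was lower in sgs1Δ (-0.58, SE 0.10, adjusted p = 0.000418 by limma), which brightness in the fit brought to -0.36 with no call, and CYC8 was not called (0.29). In control medium 1 of the 5 regulators was called higher and 2 lower, beside 21.3% of all genes called higher and 26.8% lower (48.1% either way). Under tangeretin none was called higher and 4 lower, beside 20.6% and 25.2%. The 4 include the α2 genes, at -0.30 on the brightest probe. Their other probes stood at -0.07, -0.11 and 0.004 there, with none called. None was called for tangeretin in either strain, where 3.29% of all genes were called in WT and 1.46% in sgs1Δ.

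**Figure D4:**
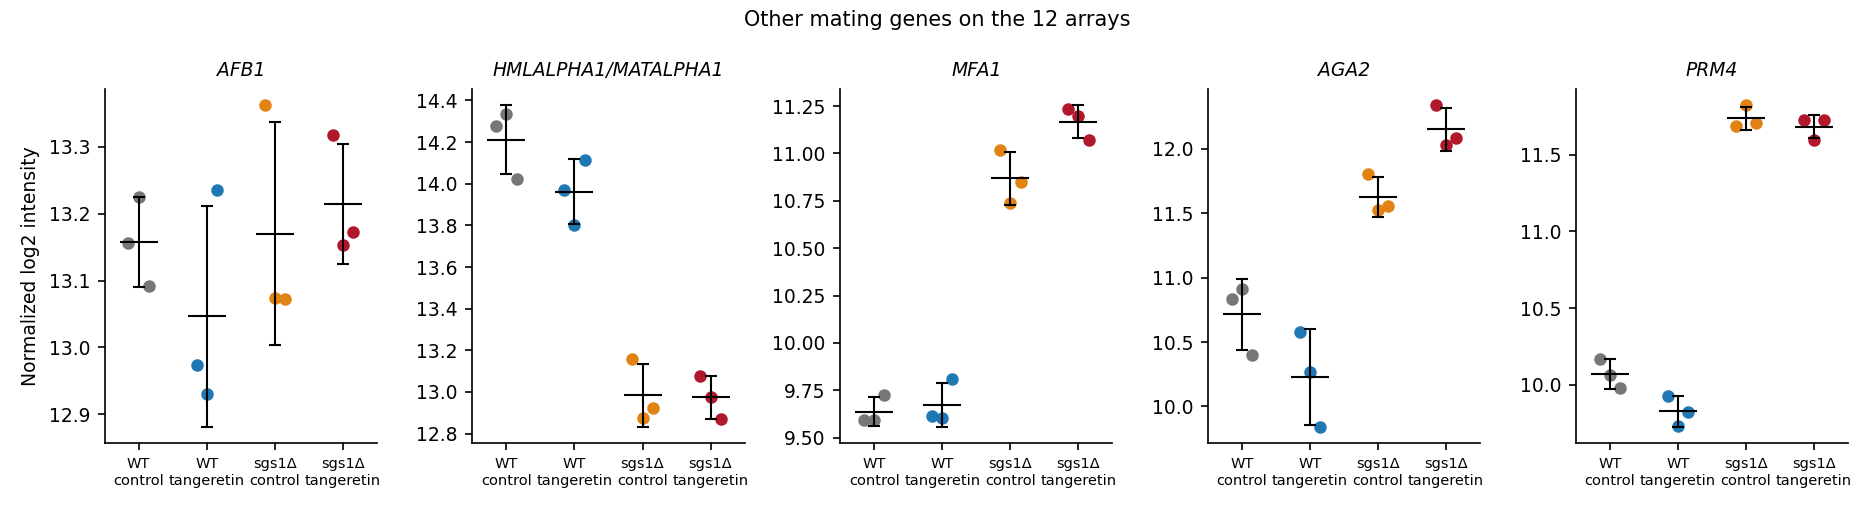
Normalized log2 intensity (vertical axis, a separate range in each panel) of 5 other mating genes, chosen after their values were seen, in the 4 groups, with points for arrays and bars for the mean and SD of 3. AFB1 overlaps across groups, the α1 probe is lower in sgs1Δ by 1.23, and MFA1, AGA2 and PRM4 are higher in sgs1Δ by 1.23, 0.91 and 1.67 in control medium.

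Some of the a cell specific genes, which α2 represses in α cells, were also higher in sgs1Δ. In control medium 4 of 7 were called higher and none lower, beside 21.3% of all genes, with a median of 0.32. MFA1, an a-factor gene, was higher by 1.23 (SE 0.10, adjusted p = 4.13e-07 by limma), AGA2, the adhesion subunit of a-agglutinin, by 0.91 (SE 0.18, adjusted p = 0.000885), STE6, the a-factor exporter, by 0.37 and MFA2, the second a-factor gene, by 0.32. STE6 and MFA2 lost their calls without the third WT control array or the first sgs1Δ control array, and MFA2 also with 75th percentile scaling. The α-factor receptor gene STE2 (0.27), BAR1, a protease that degrades α-factor (0.13), and ASG7 (0.03) were not called. Under tangeretin 6 of 7 were called higher, beside 20.6%, with AGA2 at 1.92 (SE 0.18) and MFA1 at 1.49 (SE 0.10), and BAR1 at 0.31 was not. Tangeretin itself called none of the 7 in either strain, beside 3.29% of all genes in WT and 1.46% in sgs1Δ, and AGA2 had a change of 0.52 (adjusted p = 0.116 by limma) in sgs1Δ and -0.49 in WT. The summed raw intensity of the 7 genes was 6140 to 7405 in WT control, 7316 to 8063 in WT with tangeretin, 12510 to 17120 in sgs1Δ control and 23760 to 25104 in sgs1Δ with tangeretin. That of the 4 α cell genes was 2568 to 3226, 3103 to 3452, 26344 to 33190 and 51861 to 52256. These sums carry the brightness of the arrays, whose medians differed 1.71-fold between the strains in control medium, and a sum is weighted to its brightest probe, for the α cell genes in sgs1Δ that of MF(ALPHA)1. The part of cell type in the values of the α cell genes was not tested.

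HO, which the plasmid carries behind GAL1, read 90 to 181 in WT control, 218 to 358 in WT with tangeretin, 303 to 377 in sgs1Δ control and 192 to 343 in sgs1Δ with tangeretin. Whether its probe read the plasmid or the chromosomal gene was not tested. HO was lower with tangeretin in sgs1Δ (-0.67, SE 0.13, adjusted p = 0.0224 by limma). That call was lost with 75th percentile scaling (-0.54), with brightness in the fit (-0.74), with only the sgs1Δ arrays in the fit, and without the first or the third sgs1Δ control array or the first or the second sgs1Δ tangeretin array (-0.71 to -0.52). Its change in WT was 0.46 (adjusted p = 0.0623 by limma). The silencing genes, which keep HML and HMR off, moved in both directions between the strains in control medium: SIR1 (0.49) and SIR3 (0.63) were higher and SIR2 (-0.84) was lower in sgs1Δ, while SIR4 was detected on no array. With HO (0.42), 3 of the 5 tested genes of this list were called higher and 1 lower, beside 21.3% and 26.8% of all genes. With array brightness in the fit none of SIR1 (0.30), SIR2 (-0.57), SIR3 (0.08) and HO (0.30) was called.

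Genes that mature the pheromones did not move as a block. KEX2 and KEX1, which cut and trim the α-factor precursor, differed in sign between the strains in control medium, KEX2 at -0.67 (SE 0.08, adjusted p = 2.37e-05 by limma) and KEX1 at 0.57 (SE 0.15, adjusted p = 0.00772), and STE13, the dipeptidyl aminopeptidase of this pathway, was not called (-0.17). With array brightness in the fit KEX1 was at -0.03. KEX1 was the 1 of these 3 genes called for tangeretin in WT (0.73, SE 0.15, adjusted p = 0.027 by limma), but not with brightness in the fit (0.38), with the authors' values, with only the WT arrays, or without the first or the second WT control array or the second or the third WT tangeretin array. Of 7 genes that mature a-factor, 4 were called lower in sgs1Δ control, beside 26.8% of all genes, among them the farnesyltransferase subunit RAM1 (-0.70, SE 0.08). The protease gene AXL1 was the 1 called higher (0.42), beside 21.3%, which brightness in the fit brought to 0.18 with no call. None of the 7 was called for tangeretin, beside 3.29% of all genes in WT and 1.46% in sgs1Δ.

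Of 18 pheromone signalling genes tested, 4 were called higher in sgs1Δ in control medium and 4 lower, near the 21.3% and 26.8% of all genes, with a median of -0.01. Under tangeretin 2 were called higher and 4 lower, beside 20.6% and 25.2%. In control medium the polarity scaffold BEM1 was higher in sgs1Δ (0.95, SE 0.10). SST2, which switches the G protein off and is itself induced by pheromone, was lower there (-0.99, SE 0.08, adjusted p = 4.18e-07 by limma). FAR1, the cell cycle inhibitor of the pathway, was lower in control medium too (-0.67, SE 0.12). Tangeretin called none of the 18 in WT, beside 3.29% of all genes, and in sgs1Δ, where 1.46% were called, it called BEM1, lower (-0.45, SE 0.10, adjusted p = 0.044 by limma). That call was lost under several alternatives, 75th percentile scaling and the authors' values among them, and without 9 of the 12 single arrays. The kinase gene STE7 was detected on no array.

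Of 15 genes that pheromone induces, 3 were called higher in sgs1Δ control and 6 lower, beside 21.3% and 26.8% of all genes. Under tangeretin 7 were called higher and 1 lower, beside 20.6% and 25.2%. Of the 7, PRM3 was detected on no WT array and passed the detection filter through sgs1Δ arrays alone. FIG1 and PRM6, called higher in both media, were each detected on 1 of 3 WT control arrays. Nothing is read from these counts. In control medium PRM4 was higher by 1.67 (SE 0.09, adjusted p = 8.76e-09 by limma). AGA1, the anchor of a-agglutinin (-1.14, SE 0.13, adjusted p = 1.28e-05 by limma), and FUS1, a cell fusion gene (-0.90, SE 0.11, adjusted p = 3.1e-05 by limma), were lower there. Under tangeretin PRM4 was higher by 1.86 (SE 0.09), FUS1 was lower (-0.37, SE 0.11), and AGA1 was not called (-0.05). For tangeretin in sgs1Δ, where 1.46% of all genes were called, AGA1 was called higher (0.59, SE 0.13, adjusted p = 0.044 by limma). FIG2, a cell wall adhesin (0.44, adjusted p = 0.0532 by limma), and PRM1, a membrane fusion protein (0.47, adjusted p = 0.0561 by limma), were short of the threshold. The call of AGA1 was lost with an offset of 16, with no offset, with the authors' values and without any of 8 single arrays, at 0.56 to 0.62. In WT, where 3.29% of all genes were called, the kinesin partner CIK1 was lower (-0.41, SE 0.10, adjusted p = 0.0444 by limma), a call lost with an offset of 16, with 75th percentile scaling and without any of 8 single arrays.

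The 4 genes varied together across the arrays, which is a description, since the strains form separate clusters. Over all 12 arrays the Pearson correlation between pairs of them was 0.95 to 0.99. Among all genes SAG1 ranked 201st in likeness to MF(ALPHA)1. The a cell specific genes had correlations of 0.58 to 0.99 with MF(ALPHA)1, and the pheromone induced genes of -0.83 to 0.99. Between pairs of the 4 genes the correlation was 0.84 to 0.95 within the 6 WT arrays and 0.85 to 0.99 within the 6 sgs1Δ arrays. Points share array brightness and, within a strain, the treatment. The pair most alike within sgs1Δ was MF(ALPHA)2 and SAG1 at 0.99, and within WT it was MF(ALPHA)1 and SAG1 at 0.95. Of all genes tested, STE3 was most like MF(ALPHA)2 over the 12 arrays (r = 0.993), and MF(ALPHA)2 was most like MOH1 (0.996), ECM21 (0.993) and STE3. MF(ALPHA)1 was most like the acid phosphatase probe PHO11/PHO12 (0.997), the stress gene DDR2 (0.997) and the phosphate gene SPL2 (0.996). Their strain differences in control medium were 3.35, 2.73 and 3.92. Within the WT arrays alone the correlation of MF(ALPHA)1 with PHO11/PHO12 was 0.42 and with SPL2 0.15, while with DDR2 it was 0.86 and with the other α cell genes 0.88 to 0.95. Genes outside the set were as close within a strain: in WT GRE1 with STE3 and FET3 with SAG1 (both 0.948), and in sgs1Δ MOH1 with MF(ALPHA)2 (0.993) and PHO11/PHO12 with MF(ALPHA)1 (0.88). STE3 was next most like FMP23 and GRE1 (both 0.993), and SAG1 was most like SNO1 (0.990), TMT1 (0.988) and FET3 (0.987).

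The neighbouring genes had smaller strain differences in the upward direction than the 4 genes. Of the 15 measured genes among the 2 nearest on each side of the 4 genes in the R64 annotation, the strain differences in control medium ran from -1.91 for MMS2, a repair gene beside MF(ALPHA)2, to 0.41 for COY1 beside STE3. Of these, 6 were called, beside 48.1% of all genes. Their tangeretin responses in sgs1Δ ran from -0.27 to 0.45, with none called by limma, beside 1.46% of all genes. The highest, POS5 beside MF(ALPHA)1 (0.45, adjusted p = 0.0502 by limma), and LST4 beside STE3 (0.41) lay close to MF(ALPHA)1 (0.40) and STE3 (0.44) themselves.

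**Figure D5:**
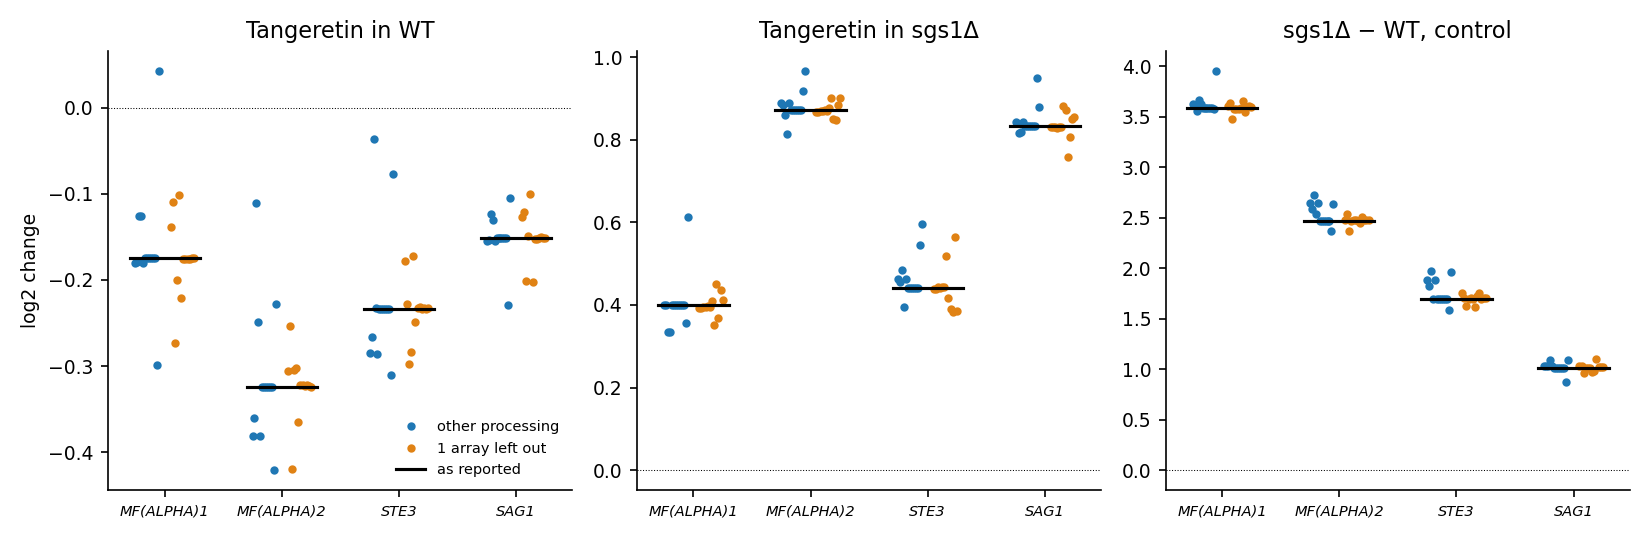
Log2 change (vertical axis) of the 4 α cell genes for tangeretin in WT, tangeretin in sgs1Δ and the strain difference in control medium, as reported (line), under 13 other processing settings (blue) and with 1 of the 12 arrays left out (orange). In sgs1Δ the values stay between 0.33 and 0.97, and the strain differences between 0.87 and 3.95. In WT they lie between -0.42 and 0.04.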

How the data were processed

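Raw intensity per spot and a scanner flag (unit other) came from the deposited table, per the file headers. The intensities appear background-subtracted, since the 2158 empty spots lay around 0, and flag 0 was read as detected. The deposited log2 values were normalized by the authors by a method not given in the sources used here, and served as an alternative. No source used here names the scanner software.

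Spots of a probe were averaged, values under 0 set to 0, 50 added, log2 taken and arrays quantile normalized (limma 3.58.1, R 4.3.3). Of 6958 probes 301 were left out as detected on fewer than 3 arrays, and the brightest probe stood for each of 224 genes with several, leaving 6319 genes. RefSeq R64 gave symbols for 6005 probes. A linear model (lmFit, eBayes) held all 4 groups (8 residual degrees of freedom, 13.7 after moderation), p-values two-sided and Benjamini-Hochberg adjusted over all genes. The threshold for a call was an adjusted p of 0.05. SE are from this fit, except differences between genes, whose SE is from the spread of array values. Array number, 3 per group, limits precision.

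The genes and the 8 gene lists were chosen with earlier results of these data known. The strain difference in control medium was planned as a test and is given as a description for that reason. Of the lists, counts are given, with called genes of the largest change or roles by name. Pattern likeness names the 3 genes of highest correlation. Neighbours and the 5 genes plotted beside the 4 were chosen later. The fit was tested on simulated data. Same-numbered arrays deviated together with correlations of -0.42 to 0.51, over 0.1 in 9 of 18 pairs, so numbers were not taken as pairs. Alternatives were offsets, scaling, filters, the authors' values, probe averaging, samples in the fit, replicate block, variance moderation, array weights, brightness and leaving out arrays.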

Additional observations from a re-analysis of the deposited data

Results flagged for a closer look

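The tangeretin response was called different between the strains, by the interaction term of the fit, for 5 of the mating genes examined. Those examined were the 4 α cell genes and the 61 tested genes of the lists. Over all 6319 genes 1.23% were called for this term. The response was higher in sgs1Δ for MF(ALPHA)2 (1.20), AGA1 (1.09), SAG1 (0.98) and FIG2 (0.72), and lower for HO (-1.14). MF(ALPHA)2 and SAG1 were among the results by which the α cell genes were chosen. Without single arrays, the call of FIG2 was lost for 7 arrays, that of AGA1 for 3 and that of HO for 2. Groups of 3 arrays are too small for a check of single outlying arrays.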

How the results depend on the processing

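All 4 α cell genes were called higher in sgs1Δ than in WT, in control medium and under tangeretin, in each of the 13 alternatives and without any 1 array. MF(ALPHA)2 and SAG1 kept their calls for tangeretin in sgs1Δ and for the interaction in every alternative and without any 1 array. With array weights 4 of the 4 genes were called for tangeretin in WT (lower), for tangeretin in sgs1Δ and for the interaction, as they were for the interaction with array brightness as a covariate. For tangeretin in sgs1Δ 3 of the 4 genes were called with 75th percentile scaling and with brightness. Leaving out 1 array gave 0 to 1 genes called in WT, 2 to 3 in sgs1Δ, 4 to 4 between the strains, and 2 to 4 for the interaction. MF(ALPHA)1 changed sign for tangeretin in WT with array brightness as a covariate, at 0.043. With the replicate block, STE3 was also called in the interaction (0.68, adjusted p = 0.0382 by limma), giving 3 genes, and the counts of the 4 genes in the other comparisons were as reported: 0 in WT, 2 in sgs1Δ and 4 between the strains. Over all genes the block gave 464 calls in WT against 208, and 81 against 92 in sgs1Δ, and 5 of 12 arrays correlated best with their own number. Counts over all genes moved far more than those of the 4 genes: with array weights 2641 in WT, 1572 in sgs1Δ and 1514 for the interaction (78 as reported), and with brightness 7, 18 and 202, and 792 against 3038 between the strains in control medium. Leaving out 1 array gave 21 to 1648 calls in WT, 18 to 769 in sgs1Δ and 6 to 343 for the interaction. With 75th percentile scaling 82.7% of calls in WT were higher. The causes were not tested. The fit with only the groups of a comparison has no value of its own for the interaction.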

Other observations

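HMRA1 is the copy at the silent locus HMR of the gene for the a1 protein of a cells and of a/α diploids. It was detected on no WT array, on 2 of 3 sgs1Δ control arrays and on all 3 sgs1Δ tangeretin arrays. Its raw intensity was 4 to 7 in WT control, 7 to 11 in WT with tangeretin, 7 to 24 in sgs1Δ control and 31 to 41 in sgs1Δ with tangeretin. A second probe for HMRA1 was detected on none of the 12 arrays. These intensities lay near the level of empty spots, and the sgs1Δ arrays were brighter than the WT arrays in the same medium. After normalization HMRA1 was not called between the strains in control medium (0.11, adjusted p = 0.397 by limma). Nor was it called for tangeretin in sgs1Δ (0.21, adjusted p = 0.255 by limma). Under tangeretin it was called higher in sgs1Δ than in WT (0.31, adjusted p = 0.024 by limma). Its probe passed the filter of detection on at least 3 arrays through sgs1Δ arrays alone, so nothing is read from that call.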
